A study of Drosophila melanogaster with 8 samples.

Results

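The 9 genes described here are the 2 roX RNA genes, lncRNA:roX1 and lncRNA:roX2, and 7 protein-coding genes of X chromosome dosage compensation, msl-1, msl-2, msl-3, mle, mof, Clamp and Trl. They were chosen by name, and they are 9 of the 18164 annotated genes on the chromosome arms. A peak was counted for a gene when it overlapped the gene body or the 1 kb on either side of it, called the window below. By this rule the 9 genes held 16 of 11295 peaks in the male fru+ list, 13 of 11206 in the male fru- list, 15 of 11217 in the female fru+ list and 14 of 11602 in the female fru- list.

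Open chromatin was profiled by ATAC-seq, an assay that uses the transposase Tn5 to cut accessible DNA and tag it for sequencing. The 4 groups were male fru+, male fru-, female fru+ and female fru- neurons of the central brain, taken from adults of 2 to 7 days with the optic lobes removed, with 2 samples per group and 8 in all. All groups were of strain w1118 and carried UAS-mCD8-GFP, MB247-Gal80 and Fru-GAL4, with TM2 or TM6B as balancer. GFP-positive cells were sorted as fru+ and GFP-negative cells as fru-. GAL80 silences GAL4 in Kenyon cells of the mushroom body, so Kenyon cells that transcribe fruitless fell in the fru- pools, and FruM protein is made only in male cells. Each group had 1 deposited peak list, described as pooled from both of its samples, so no value below has a replicate error and no test between groups was possible. In sorted pools of cells, more open cells and more accessibility per cell cannot be told apart.

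Some descriptions of the samples conflict with each other. Groups were taken from sample titles, and the free-text descriptions of the female fru+ and male fru- samples each name the other of these groups. The list titled male fru- had 14.9% of its peaks on X and 7 peaks on Y, beside 15.0% and 6 in male fru+. The list titled female fru+ had 20.3% on X and 1 on Y, beside 20.1% and 1 in female fru-. The names of the peaks are tagged replicate 1 in the male lists and replicate 2 in the female ones, although the lists are described as pooled. If each list came from that replicate alone, sex and sorting session cannot be told apart. The genome background recovered from the lists, which follows sequencing depth, was 18.0 and 18.9 fragments in male fru+ and fru- neurons, against 14.3 and 16.4 in female fru+ and fru- neurons. The neuronal genes elav, nSyb, brp, Syt1 and para had peaks in every list. Of the glial genes, repo and moody had no peak in any list, Eaat1 had peaks in 3 lists and gcm in 3. The Kenyon cell genes ey and mub had peaks in every list.

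Drosophila males equalise the output of their single X chromosome with the pair of X chromosomes in females by raising its transcription. The male-specific lethal (MSL) complex that does this is built from the proteins MSL1, MSL2, MSL3, the RNA helicase MLE and the histone acetyltransferase MOF, with either roX1 or roX2 RNA. MSL2 protein is made in males, because Sex-lethal blocks its production in females, and without it the complex does not assemble and roX RNAs do not accumulate. The complex first binds GA-rich entry sites on X, and both roX genes carry such a site inside the transcribed sequence. The zinc-finger protein CLAMP binds these GA-rich elements in both sexes, and GAGA factor, the product of Trl, binds GAGAG repeats across the genome.

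The sequences shown first are the 300-base windows centred on the summits that differed between male and female lists at the roX genes. Capitals mark every GAGAG on the printed strand and every CTCTC, which is GAGAG on the other strand, with overlapping matches run together. The roX1 windows are X:3861197-3861496 for the interior summit of the male lists and X:3862601-3862900 for the 5′ end summit of the female lists. The roX2 windows are X:11580113-11580412 for the interior summit of the male lists and X:11578897-11579196 for the 5′ end summit of the male fru+ list. All coordinates are dm6, counted from 1, and the bases are from the RefSeq Release 6 genome, read 5′ to 3′ along the transcript (minus strand for roX1, plus strand for roX2).
roX1 interior: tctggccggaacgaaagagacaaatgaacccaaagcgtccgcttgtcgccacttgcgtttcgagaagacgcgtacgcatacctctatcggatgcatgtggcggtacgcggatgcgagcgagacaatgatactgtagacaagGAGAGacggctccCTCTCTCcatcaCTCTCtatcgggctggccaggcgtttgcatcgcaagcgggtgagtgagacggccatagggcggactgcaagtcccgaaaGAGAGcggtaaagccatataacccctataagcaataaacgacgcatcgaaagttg
roX1 5′ end: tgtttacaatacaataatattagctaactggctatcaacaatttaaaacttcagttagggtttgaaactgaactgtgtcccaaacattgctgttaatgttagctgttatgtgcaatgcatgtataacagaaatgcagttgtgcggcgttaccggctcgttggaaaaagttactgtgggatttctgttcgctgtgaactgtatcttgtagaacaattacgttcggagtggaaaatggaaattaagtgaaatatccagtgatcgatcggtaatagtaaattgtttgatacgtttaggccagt
roX2 interior: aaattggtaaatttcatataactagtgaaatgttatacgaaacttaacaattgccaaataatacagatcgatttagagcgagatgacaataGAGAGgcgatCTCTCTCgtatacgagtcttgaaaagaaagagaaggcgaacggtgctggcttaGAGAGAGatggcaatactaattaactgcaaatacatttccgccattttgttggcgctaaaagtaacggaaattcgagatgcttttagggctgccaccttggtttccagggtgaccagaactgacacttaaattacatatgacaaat
roX2 5′ end: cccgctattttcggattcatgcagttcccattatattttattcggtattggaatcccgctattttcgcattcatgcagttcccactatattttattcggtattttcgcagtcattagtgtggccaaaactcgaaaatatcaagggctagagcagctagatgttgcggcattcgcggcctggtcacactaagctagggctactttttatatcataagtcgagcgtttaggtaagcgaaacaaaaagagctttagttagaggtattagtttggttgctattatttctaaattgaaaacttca

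The interior windows of both roX genes held 5 matches to GAGAG, and both 5′ windows held 0. The longer repeat GAGAGAGA was found 2 times in the roX2 interior window and 0 times in the roX1 interior window. The roX1 interior window was 54.7% GC, against 37.0% at the roX1 5′ end, while the roX2 windows were 38.3% and 39.3% GC. Such matches are frequent under peaks. Among windows of the same length around all X summits, at least 1 GAGAG was present in 47.9% and 47.6% in male fru+ and fru- neurons, against 43.2% and 43.7% in female fru+ and fru- neurons. At least 5 matches were present in 11.6% and 11.7% of X windows in the male lists, against 8.76% and 9.04% in the female lists. GAGAGAGA was present in 12.6% and 12.3% of X windows in the male lists, against 9.42% and 9.55% in the female lists. On the autosomes, at least 5 matches were present in 7.14% to 7.33% of windows in the 4 lists.

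At roX1 all 4 lists had a peak over the 5′ end, and in male lists the peak extended far into the gene. The gene (FBgn0019661) lies at X:3857230-3862697 on the minus strand and is 5468 bp long. Its peak covered 1864 and 1856 bp in male fru+ and fru- neurons, against 423 and 441 bp in female fru+ and fru- neurons. The mean of the male lists was 4.31 times that of the female lists, and the groups did not overlap. With the male fru+ and female fru- lists alone, whose titles and descriptions do not conflict, the ratio was 4.23. The peak names of these lists still carry different replicate tags, so sorting session is not set aside by this choice. Both male lists above both female lists with a ratio of at least 2 was found for 1.84% of X genes with a peak. The extra length in males ran in the direction of transcription. The male peaks ended 1724 and 1710 bp inside the gene in male fru+ and fru- neurons, whereas the female peaks ended 239 and 245 bp inside it. At the upstream edge the lists were close, with peak starts at -139 and -145 bp from the gene start in male fru+ and fru- neurons, against -183 and -195 bp in female fru+ and fru- neurons. A stretch of 379 bp was covered in every list, and a stretch of 1465 bp was covered in both male lists and in neither female list. Peaks covered 31.5% and 31.3% of the gene body in male fru+ and fru- neurons, against 4.39% and 4.50% in female fru+ and fru- neurons.

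The summit of the roX1 peak also differed in place. It was 1328 and 1371 bp inside the gene in male fru+ and fru- neurons, at bases that are exonic in 5 of 5 transcripts, and it was at -53 and -55 bp, upstream of the gene, in female fru+ and fru- neurons. These interior summits lie in the GA-containing window printed above. The summit fold over local background, as the peak caller gave it, was 7.48 and 7.84 in male fru+ and fru- neurons, against 6.29 and 6.78 in female fru+ and fru- neurons. The local background was itself higher in males, at 31.2 and 33.1 fragments in male fru+ and fru- neurons, against 14.3 and 16.4 in female fru+ and fru- neurons, and it includes reads of the peak. Set against the genome background of each list, the summit pileup was 13.3 and 14.1 in male fru+ and fru- neurons, against 6.64 and 7.13 in female fru+ and fru- neurons. In rank by −log10 q among the X peaks of its own list, the roX1 peak was at the 91.6th and 90.9th percentile in male fru+ and fru- neurons, against the 60.7th and 62.7th in female fru+ and fru- neurons. In width it was at the 95.9th and 95.3rd percentile in the male lists, against the 38.2nd and 39.0th in the female lists.

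At roX2 the male lists had peaks over the 5′ end and over the gene body that the female lists lacked, apart from the 3′ margin of the gene. The gene (FBgn0019660) lies at X:11579065-11580432 on the plus strand and is 1368 bp long. Male fru+ had a peak of 484 bp with its summit at -18 bp, upstream of the gene, and another of 1170 bp with its summit 1198 bp inside it, in sequence that is exonic in the 1 annotated transcript that reaches there. Male fru- had 1 peak of 1925 bp that spanned both, with its summit at the same base, 1198 bp inside the gene. The female lists had 1 peak each, of 566 and 599 bp in female fru+ and fru- neurons, with the summit 1648 bp from the roX2 start, beyond the 3′ end of the gene. The female peaks lay over the start of the neighbouring gene nod, which encodes a kinesin-like protein of chromosome segregation.

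Covered length at roX2 was 1654 and 1925 bp in male fru+ and fru- neurons, against 566 and 599 bp in female fru+ and fru- neurons. The ratio of the means was 3.07, or 2.76 with the male fru+ and female fru- lists alone, and the groups did not overlap. Within the gene body the peaks covered 81.9% and all of the sequence in male fru+ and fru- neurons, against 13.5% and 14.5% in female fru+ and fru- neurons. Both male lists shared 1055 bp that neither female list covered. The female peaks began 1183 and 1169 bp inside the gene, so the base of the male summit fell just within their edge. The 566 bp covered in every list were the whole female fru+ peak, so the region over the nod start was open in all 4 groups. A peak of this caller carries 1 summit, so the height over the nod start in males, where it is joined to the roX2 signal, is not given by the lists.

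Peak height in the roX2 window did not follow the same order as covered length, although the male and female summits lie at different places. The fold over local background was 8.27 and 7.46 at the interior summit in male fru+ and fru- neurons, against 9.37 and 10.8 at the nod summit in female fru+ and fru- neurons. The 5′ peak of male fru+ was lower, with a fold of 4.77 and a rank at the 47.8th percentile of X peaks. The interior peak of male fru+ and the joined peak of male fru- ranked at the 81.3rd and 74.8th percentile, against the 74.4th and 78.5th for the female peaks. Male and female lists differed at roX2 in the position and extent of peaks, while the highest-ranked peak of the window lay between the 74.4th and 81.3rd percentile in all lists. Height at the same base was not compared between the sexes, since each peak gives a value only at its own summit.

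**Figure D1:**
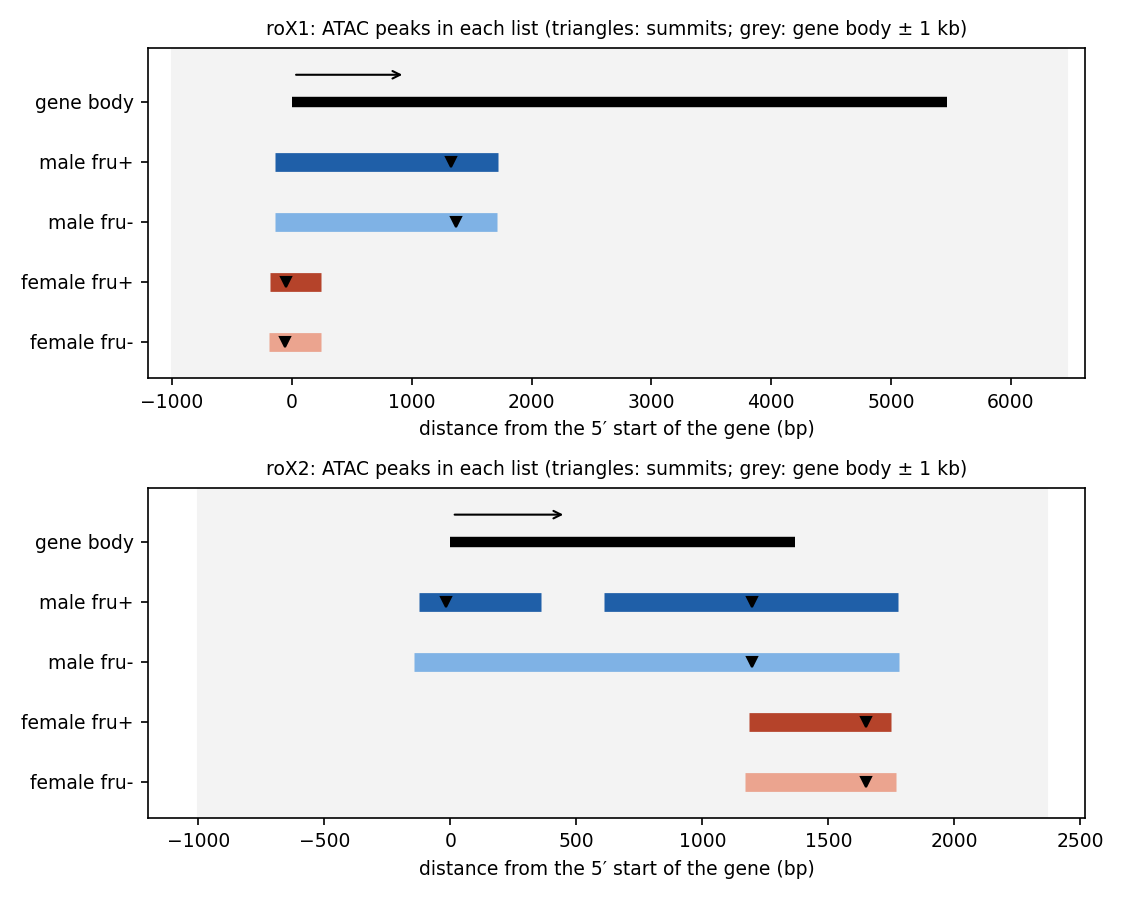
Peaks at roX1 and roX2 in each list, drawn by distance in bp from the 5′ start of the gene along the direction of transcription; bars are peaks, triangles their summits and grey the gene body with 1 kb on each side. The male peaks at roX1 reach 1724 and 1710 bp into the gene and the female peaks 239 and 245 bp, and at roX2 the female peaks lie at the 3′ end only.

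On the fru axis the roX genes did not separate. At roX1 the mean covered length of the fru+ lists was 0.996 times that of the fru- lists, and at roX2 it was 0.880 times. The male lists differed more at roX2 than at roX1, since male fru+ had a gap between its peaks where male fru- had none. No member was called on this axis, for which 1.24% of all genes with a peak were called higher in fru+ lists and 2.85% higher in fru- lists.

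Between male and female lists a gene was called when both lists of one sex covered more of its window than both lists of the other and the ratio of the means was at least 2. Of the 9 members, roX1 and roX2 were called higher in male lists and mof was called higher in female lists. Of the 10785 genes with a peak in at least 1 list, 2.76% were called higher in male lists and 3.09% higher in female lists. The X chromosome differed from the autosomes in this. On X, 1.84% of 1741 genes were called higher in male lists and 14.2% higher in female lists, against 2.94% and 0.94% of the 9044 autosomal genes. The median ratio of male over female covered length was 0.887 over X genes and 1.03 over autosomal genes. The roX genes therefore stood on the less frequent side for X genes and mof on the more frequent side. The fewer peaks on the male X move with this background. When every list was cut to equal numbers of X and of autosomal peaks, mof was not called, as described below. Beyond that cut, the part of the fewer peaks in the mof call was not tested.

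**Figure D2:**
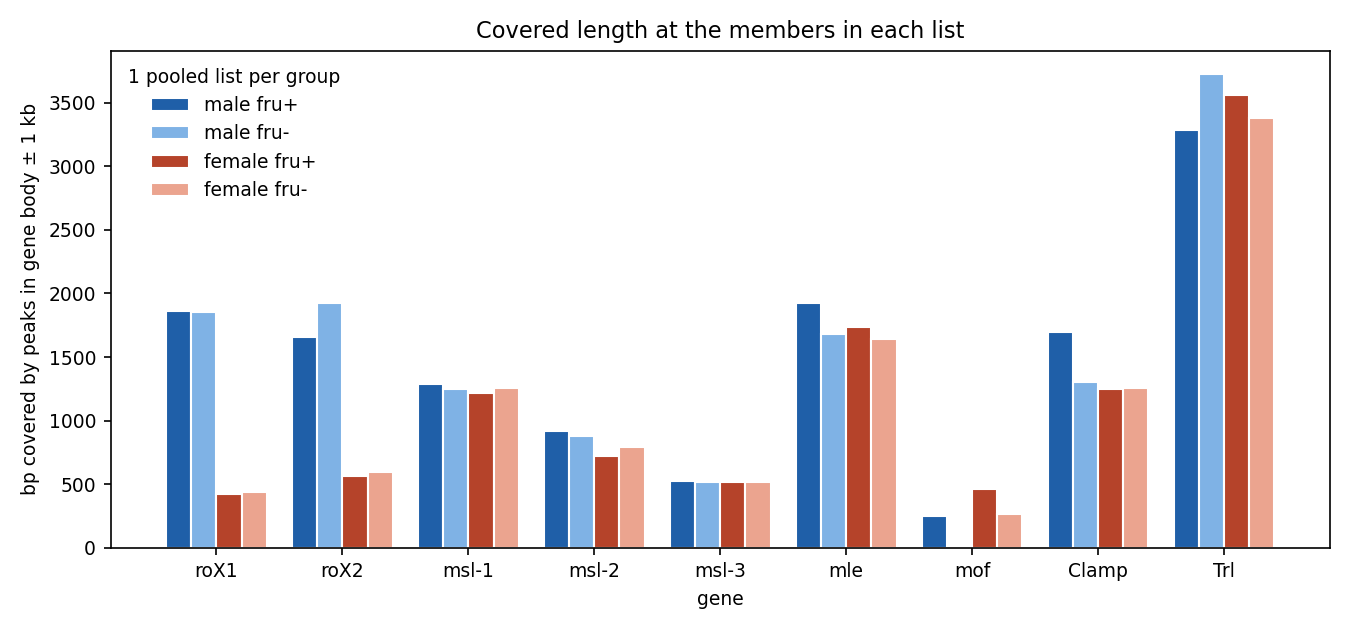
Base pairs covered by peaks within the gene body and 1 kb on each side of the 9 members; each bar is 1 pooled list, with no replicate error. Male bars exceed female bars by more than 1000 bp at roX1 and roX2. Of the other members, mof has no peak in male fru-, Clamp has a further peak in male fru+, and the Trl bars run from 3287 to 3722 bp. The remaining members differ less across lists.

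The 7 protein-coding members, which include Clamp and Trl from outside the MSL complex, had similar mean covered lengths in male and female lists, apart from mof. Clamp also had a further peak in male fru+. Over the 7 protein-coding members the median ratio of male over female lists was 1.02, and the ratios ran between 0.342 for mof and 1.19 for Clamp. The median over all genes with a peak was also 1.02. On the fru axis the median of the 7 was 1.00, against 0.983 over all genes. Every member but mof had a peak in every list.

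msl-2 encodes the RING-finger protein that limits complex assembly to males. Its gene (FBgn0005616, 2L:3462218-3466112, minus strand) had 1 peak over its start in each list, shared with the divergent gene ND-PDSW, which encodes a subunit of mitochondrial complex I. The peak covered 921 and 879 bp in male fru+ and fru- neurons, against 719 and 796 bp in female fru+ and fru- neurons. Male lists were the longer ones, with a ratio of 1.19, below the fold required for a call. The summit was the same base in all 4 lists, at -18 bp from the msl-2 start. Its fold was 8.81 and 8.25 in male fru+ and fru- neurons, against 7.15 and 8.11 in female fru+ and fru- neurons. The promoter region that msl-2 shares with ND-PDSW was thus accessible in female lists, at the 64.9th and 68.2nd percentile of autosomal peaks in female fru+ and fru- neurons. The peak does not tell the 2 promoters apart.

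msl-1 encodes the scaffold protein of the complex. Its gene (FBgn0005617, 2L:18683720-18688800, minus strand) also had 1 peak per list, which ran over the start of the neighbouring gene CG10336. Covered length within the window was 1285 and 1248 bp in male fru+ and fru- neurons, against 1217 and 1258 bp in female fru+ and fru- neurons. The lists overlapped between the sexes and the ratio was 1.02. The summit was at -767 bp from the msl-1 start, close to the CG10336 start, in one male list (fru+) and at -80 bp in the other (fru-), against -48 and -48 bp in female fru+ and fru- neurons. The fold was 7.07 and 8.15 in male fru+ and fru- neurons, against 8.19 and 6.32 in female fru+ and fru- neurons.

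msl-3 encodes a chromodomain protein of the complex. Its gene (FBgn0002775, 3L:7123213-7125533, minus strand) was the most constant member in length, with 522 and 517 bp in male fru+ and fru- neurons against 516 and 517 bp in female fru+ and fru- neurons. All of this lay in 1 peak over the start. Its fold varied more than its length, at 6.86 and 9.11 in male fru+ and fru- neurons against 9.96 and 9.49 in female fru+ and fru- neurons.

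mle encodes the RNA helicase that remodels roX RNA. Its window (FBgn0002774, 2R:5974857-5980778, minus strand) held 3 peaks in each list. One lay over the start of mle, one upstream over the start of Src42A, a tyrosine kinase gene, and one beyond the 3′ end over the start of BubR1, a spindle checkpoint gene. Covered length was 1922 and 1678 bp in male fru+ and fru- neurons, against 1733 and 1638 bp in female fru+ and fru- neurons, a ratio of 1.07. The peak over the mle start had its summit 343 to 345 bp inside the gene in all 4 lists, in a coding exon. Its fold was 5.11 and 5.45 in male fru+ and fru- neurons, against 5.29 and 6.33 in female fru+ and fru- neurons. The fold of the BubR1 peak was 5.06 and 5.08 in male fru+ and fru- neurons, against 3.80 and 3.91 in female fru+ and fru- neurons. Its width overlapped between the sexes, at 835 and 683 bp in male fru+ and fru- neurons, against 793 and 618 bp in female fru+ and fru- neurons.

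mof encodes the histone acetyltransferase of the complex, and it is the only protein-coding member on X (FBgn0014340, X:5873840-5876853, minus strand). In each list that had a peak there, its highest-ranked peak stood below that of every other member. A peak over its start covered 251 bp in male fru+ neurons, against 249 and 269 bp in female fru+ and fru- neurons, and male fru- neurons had none. Female fru+ had a further peak of 215 bp downstream, over the start of GAA1, which made its total 464 bp. The fold of the start peak was 2.34 in male fru+ neurons, against 2.24 and 2.71 in female fru+ and fru- neurons. It ranked at the 7.0th percentile of X peaks in male fru+, against the 6.0th and 23.3rd in female fru+ and fru- neurons. The lowest fold at which an X peak was listed over the genome background was 2.06 and 2.01 in male fru+ and fru- neurons, against 2.10 and 2.01 in female fru+ and fru- neurons. The local background at the mof start was above the genome background, at 22.1 fragments in male fru+ neurons, against 21.7 and 25.2 in female fru+ and fru- neurons. The list without a peak there, male fru-, had the highest genome background of the 4. Within the gene body alone, the start peak covered 208 bp in each of the 3 lists that had it, and mof was then not called. It was also not called when every list was cut to equal numbers of X and of autosomal peaks. In that cut male fru+ kept 251 bp at mof and both female lists kept 0 bp. With the male fru+ and female fru- lists alone mof was not called either.

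**Figure D3:**
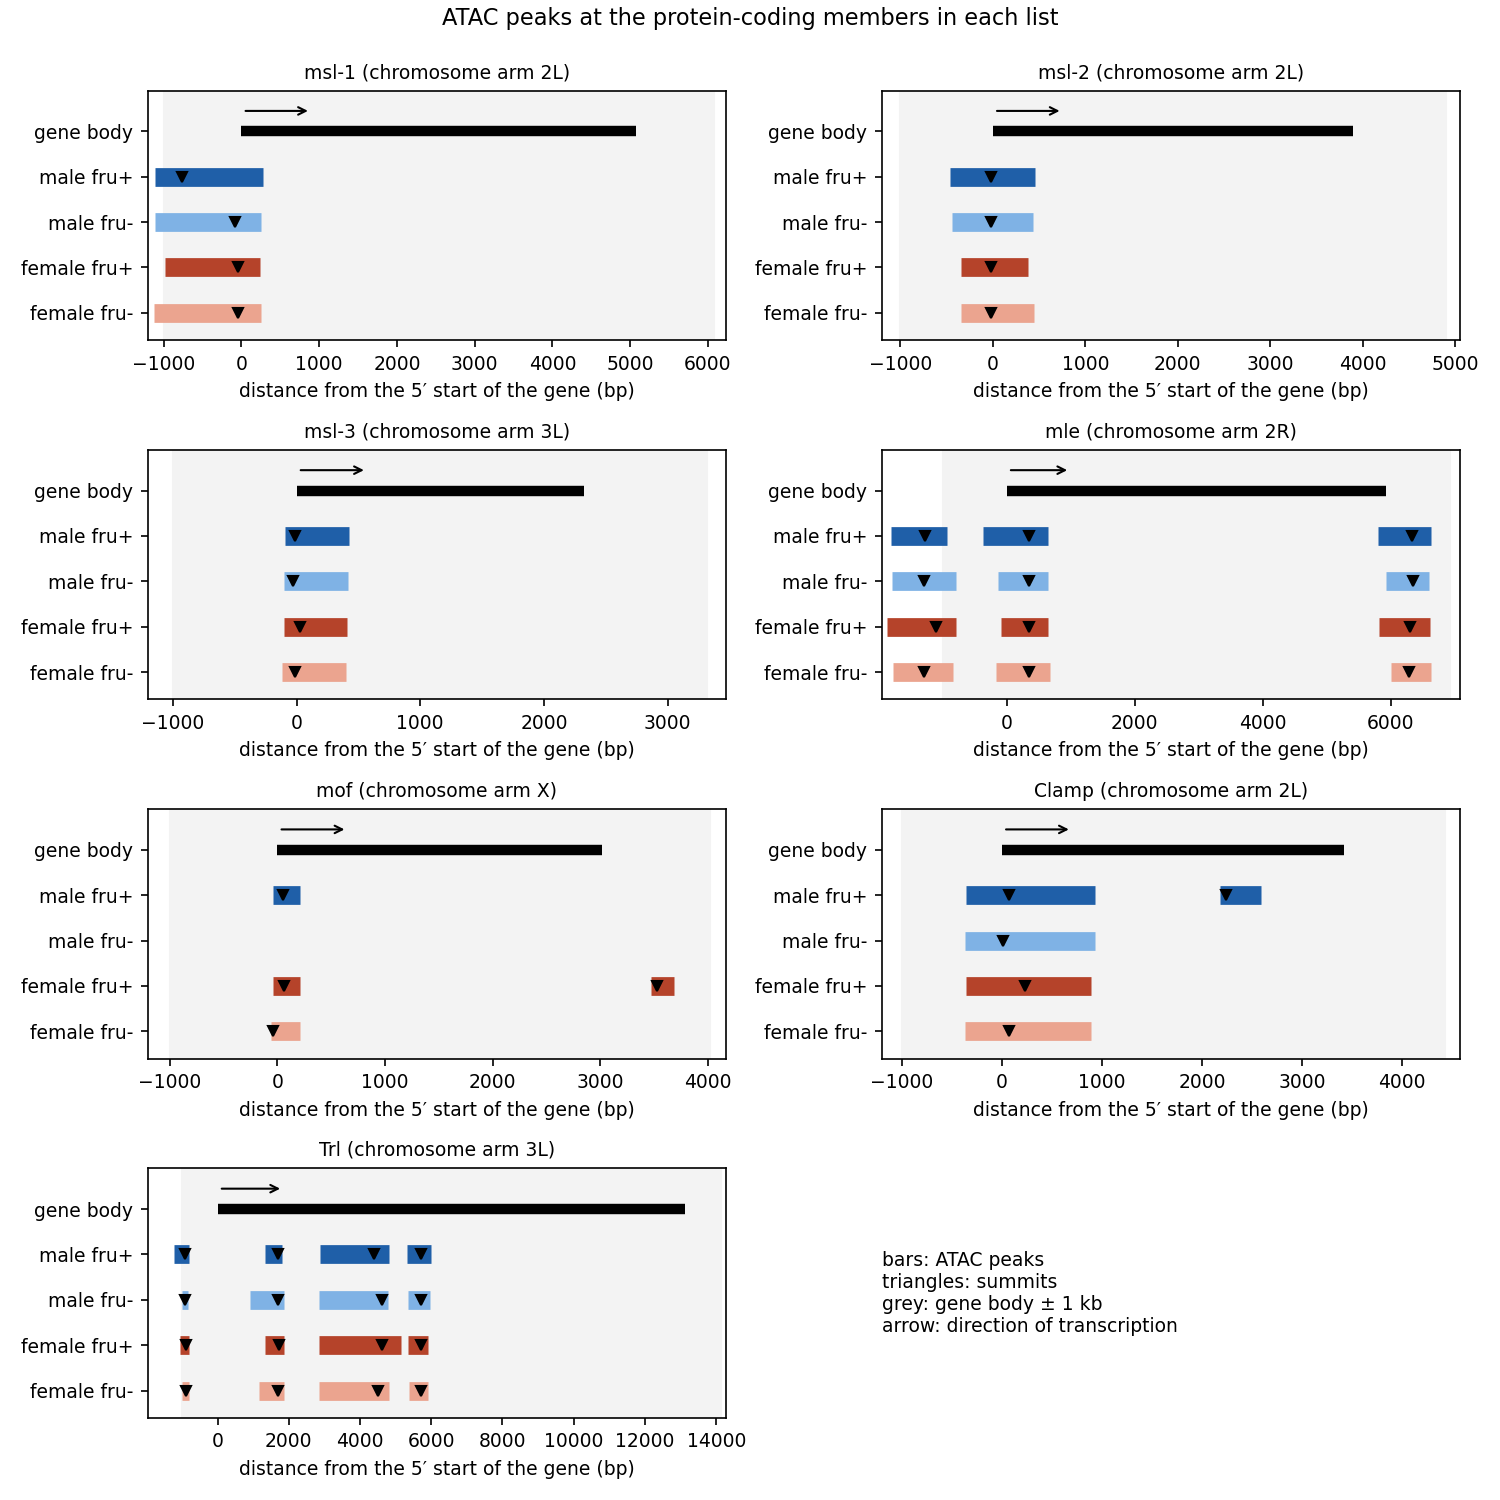
Peaks at the 7 protein-coding members in each list, by distance in bp from the 5′ start along the direction of transcription; bars are peaks, triangles their summits and grey the gene body with 1 kb on each side. A start of each gene lies under a peak in every list except mof in male fru-, and at Trl these are internal starts.

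Clamp, which encodes the GA-binding zinc-finger protein, had the highest fold of any protein-coding member at its promoter. The gene (FBgn0032979, 2L:22165720-22169143, minus strand) had a start peak of 1287 and 1301 bp in male fru+ and fru- neurons, against 1252 and 1260 bp in female fru+ and fru- neurons. The fold was 10.1 and 10.6 in male fru+ and fru- neurons, against 10.7 and 11.0 in female fru+ and fru- neurons. It ranked between the 95.2nd and 96.2nd percentile of autosomal peaks in the 4 lists. Male fru+ had another peak of 409 bp in a coding exon, with a fold of 2.02, at the 9.97th percentile, and this peak brought its covered length to 1696 bp. Without it the 4 lists differed by less than 50 bp at Clamp.

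Trl, which encodes GAGA factor, had the most base pairs under peaks of the 9 members, in the longest window. Its window (FBgn0013263, 3L:14747929-14761049, minus strand) held 4 peaks in each list, which covered 3287 and 3722 bp in male fru+ and fru- neurons against 3557 and 3380 bp in female fru+ and fru- neurons. The sexes overlapped and the ratio was 1.01. The widest peak, over internal starts of Trl and the start of CG42507, measured 1958 and 1937 bp in male fru+ and fru- neurons against 2279 and 1974 bp in female fru+ and fru- neurons. Its summit window held 6 and 8 matches to GAGAG in male fru+ and fru- neurons, against 8 and 8 in female fru+ and fru- neurons. At the summits of the other 6 protein-coding members the windows held 0 or 1 match. The upstream peak lay over the start of Mgat4a.

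The deposited fold placed Trl among the low members and the pileup placed it highest. Its widest peak had a fold of 3.67 and 3.67 in male fru+ and fru- neurons, against 3.92 and 3.60 in female fru+ and fru- neurons. The local background there was 141 and 151 fragments in male fru+ and fru- neurons, against 92.7 and 120 in female fru+ and fru- neurons, many times the genome background. Over the genome background of the list, the summit pileup was 29.0 and 29.4 in male fru+ and fru- neurons, against 25.6 and 26.4 in female fru+ and fru- neurons. By pileup this peak was at the 98.1st and 97.5th percentile of autosomal peaks in male fru+ and fru- neurons, against the 97.6th and 96.8th in female fru+ and fru- neurons. By the same measure the Clamp start peak reached 20.9 and 23.4 in male fru+ and fru- neurons, against 19.0 and 20.9 in female fru+ and fru- neurons.

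**Figure D4:**
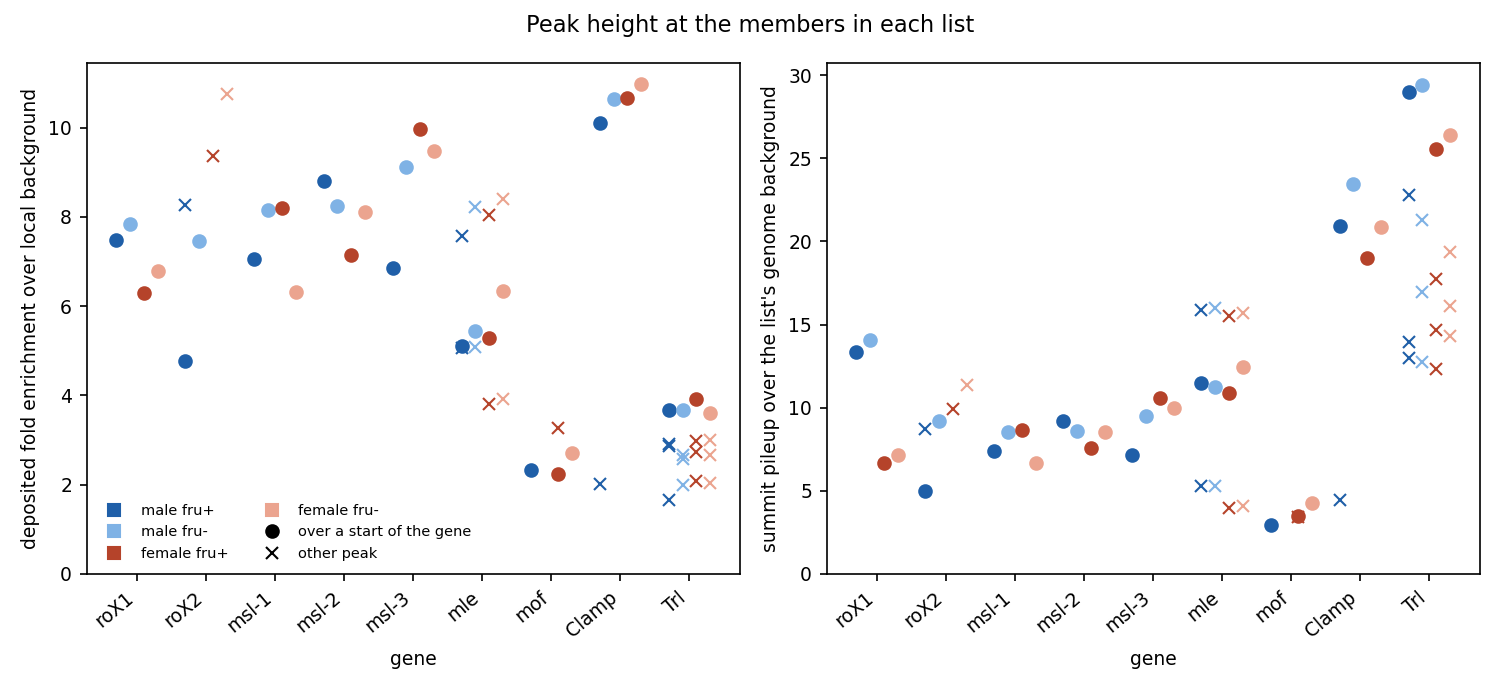
Height of each peak counted for the members; left, the deposited fold over local background, and right, the summit pileup over the genome background of the list. Each point is 1 peak of 1 list, circles mark peaks over a start of the gene and crosses other peaks. The widest Trl peak stands at a fold below 4 on the left and at 25.6 to 29.4 on the right, and roX1 at 13.3 and 14.1 in male lists against 6.64 and 7.13 in female lists.

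Genes that work with the complex were counted from a list of 19, from Sxl, the sex switch that blocks msl-2, to NSL complex genes, the histone kinase gene JIL-1 and heterochromatin genes. All 19 were matched, Mtor under the symbol Mgtor, and 18 had a peak in every list. The median ratio of male over female covered length was 1.02, between 0.904 for Sxl and 2.16 for dgt1. Sxl covered 1898 and 2192 bp in male fru+ and fru- neurons, against 2214 and 2312 bp in female fru+ and fru- neurons, and was not called. dgt1, an NSL complex gene, was the only gene of this list called higher in male lists. It covered 317 and 320 bp in male fru+ and fru- neurons, against 0 and 295 bp in female fru+ and fru- neurons, and it passed the fold through the female fru+ list, the shallowest, which had no peak there. None of the 19 was called higher in female lists. Over all genes with a peak these shares were 2.76% and 3.09%, so a count of 1 of 19 is near the background.

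Among X genes the roX genes ranked the highest of all by the gap between the lower male list and the higher female list. This gap was 1415 bp at roX1 and 1055 bp at roX2, which ranked 2 and 5 among all 10785 genes with a peak. The roX genes are known for male-specific activity, so this ranking is a description and has no test. The 5 other X genes with the largest gaps were mRpL14, prage, su(f), asRNA:CR45009 and CG5541, of which mRpL14, asRNA:CR45009 and CG5541 met the rule for a call.

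mRpL14, a mitochondrial ribosomal protein gene, was the nearest to the roX genes by the gap in covered length. It covered 1459 and 1620 bp in male fru+ and fru- neurons, against 455 and 352 bp in female fru+ and fru- neurons. As at roX1, its peak was joined to a male stretch that carried the summit, here downstream of the gene, while the female summits lay in an exon. Unlike at roX1, the male peaks ranked lower. They were at the 39.8th and 35.8th percentile of X peaks in male fru+ and fru- neurons, against the 52.6th and 56.4th in female fru+ and fru- neurons. The window at the male summit held 10 matches to GAGAG and 8 to GAGAGAGA. CG5541 covered 914 and 749 bp in male fru+ and fru- neurons, against 0 and 0 bp in female fru+ and fru- neurons. Its summit was downstream of the gene too, and that window held 0 matches to GAGAG. asRNA:CR45009 covered 1117 and 1131 bp in male fru+ and fru- neurons, against 269 and 301 bp in female fru+ and fru- neurons. At prage the covered length was large in every list, with 7322 and 7283 bp in male fru+ and fru- neurons against 6383 and 6336 bp in female fru+ and fru- neurons. At su(f), which encodes a subunit of an mRNA 3′ end processing factor, it was 2649 and 2619 bp in male fru+ and fru- neurons, against 1735 and 1799 bp in female fru+ and fru- neurons. Windows at the summits of male peaks held 0 or 2 matches to GAGAG at asRNA:CR45009, and between 0 and 3 at prage and at su(f).

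**Figure D5:**
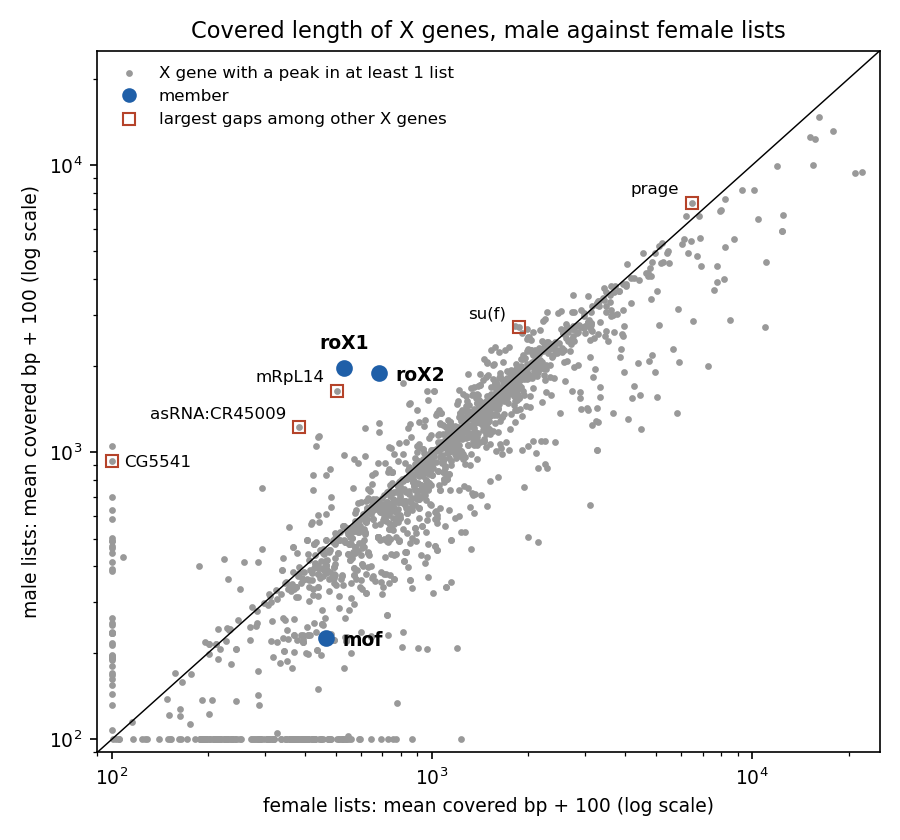
Mean base pairs covered within the gene body and 1 kb on each side, male lists (vertical) against female lists (horizontal), with 100 bp added so that genes at 0 appear on the log axes. Each point is an X gene with a peak in at least 1 list, and the line marks equal length. roX1 and roX2 lie far above the line, mof lies below it, and squares mark the 5 other X genes with the largest gaps.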

How the data were processed

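The authors used cutadapt for trimming, Bowtie2 for alignment to dm6 and Picard against duplicates, applied a mapping quality filter with SAMtools and called peaks with MACS2 at an FDR under 0.001. Versions are not given in the sources used here, and no shift of reads to the Tn5 cut site is described. For each peak the authors deposited a score, a fold enrichment (a ratio of summit pileup to local background), a p-value and a q-value as −log10 values, and the offset of the summit. Pileup and local background were recovered here from the fold and the p-value, and the genome background is their usual floor. Recovery succeeded for 11300 of 11307, 11212 of 11218, 11214 of 11224 and 11602 of 11607 peaks in male fru+, male fru-, female fru+ and female fru-. It was tested on simulated data with lower pileups and backgrounds than the widest Trl peak, the Clamp start peak and the male roX1 peaks. For those peaks the recovery was not tested by simulation. The lists held no read counts per sample, so depth is known only through the background. Peaks off the arms were left out.

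Genes were from Ensembl release 115 (annotation 6.54), without transposable elements, whose chromosome lengths matched dm6. Covered length was the number of base pairs of the window under peaks. Ranks were by −log10 q within a list, among X or autosomal peaks. Python 3.11.15, numpy 2.4.6, scipy 1.17.1 and matplotlib 3.10.9 were used. Named genes were the 9 members, the 19 pathway genes by counts, genes whose start lay under a member's peak, and the 5 other X genes with the largest gap that shared no peak with a member or a higher-ranked gene. The members, lists, motif and rules were chosen with earlier results of these data known. Alternatives were a window with no flank or 2 kb, a −log10 q of at least 5, lists of equal length, equal numbers of X and autosomal peaks, stricter overlap and a call fold of 1.5. An alternative chosen after seeing the data used the male fru+ and female fru- lists only.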

Additional observations from a re-analysis of the deposited data

Results flagged for a closer look

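The difference in covered length between the sexes had opposite signs in fru+ and fru- lists at 2 members. At msl-1 the male list minus the female list was 68 bp in fru+ and -10 bp in fru-. At Trl it was -270 bp in fru+ and 342 bp in fru-. At both genes this is the width of peaks that every list holds, and the difference was not tested, since each group had 1 list. Groups of 1 list could not be examined for samples far from the others.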

How the results depend on the processing

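No paired analysis was possible because each group had 1 pooled list, and no replicate could be left out. Of 74 values under 9 alternatives, 66 stayed within 1.5 times the value reported, 8 moved by more and 0 reversed. A reversal could be counted only for the roX ratios of male over female lists, which were at least 2. Ratios near 1 could change side unmarked, as the roX1 ratio of fru+ over fru- lists did, from 0.996 to 1.004 without the flank. Without the flank the ratio of male over female lists was 7.07 at roX1 and 6.48 at roX2. The flanks hold a larger share of the female peaks than of the male peaks. The mof start peak then covered 208 bp in male fru+ and in both female lists, so members called higher in female lists numbered 0. That number was also 0 with equal numbers of X and autosomal peaks and with the male fru+ and female fru- lists only. Members called higher in male lists were roX1 and roX2 under all 9 alternatives. Genes called higher in male lists numbered 510 at a fold of 1.5. With the male fru+ and female fru- lists only, genes called higher in male lists numbered 774 and genes called higher in female lists 800, because 1 list per sex has to differ in place of 2.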

Other observations

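Several starts that lie under peaks counted for members belong to other genes, and these peaks had their own pattern. nod covered 1071 and 1073 bp in male fru+ and fru- neurons, against 566 and 599 bp in female fru+ and fru- neurons, a ratio of 1.84 that includes the interior peak of roX2. Src42A covered 2916 and 1490 bp in male fru+ and fru- neurons, against 2047 and 1050 bp in female fru+ and fru- neurons. Both fru+ lists were above both fru- lists, short of the fold of 2 required for a call, and the sexes overlapped. How many of all genes separate in this way is not given here, and the difference was not tested. GAA1 had a peak in female fru+ only, of 215 bp.

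The deposited fold and the pileup over genome background ordered the members differently. By fold the widest Trl peak stood below the start peaks of msl-1, msl-2, msl-3, mle and Clamp in every list, and by pileup over genome background it stood above them in every list. A ranking of these genes by accessibility therefore depends on which background is used.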
